A study of Drosophila melanogaster with 2 samples.

Results

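The vacuolar ATPase (V-ATPase) subunit genes of Drosophila melanogaster are the protein-coding genes whose symbol starts with Vha, together with ATP6AP2. This rule, applied to the Ensembl annotation of the dm6 genome, gave 34 genes of 13945 protein-coding genes on the chromosome arms, and all 34 carried the same coordinates in the RefSeq annotation. Chromatin came from whole adult female flies of a transgenic line in which the protein CG7101, assayed as a transcription factor, stably carries a C-terminal GFP tag. The tagged protein was precipitated with an antibody against GFP, and the DNA that came with it was sequenced (ChIP-seq). All flies carried the tag, and the control named for the study was not analysed here. The 2 biological replicates form 1 group, so no condition was compared with another. The age of the flies is not known, and whole flies mix all tissues, so peaks cannot be assigned to a cell type. A replicate list and a pooled list each hold 30000 peaks, and the peaks that passed an irreproducible discovery rate step (IDR peaks) number 6486, the strongest of the pooled list. A gene is called bound below when an IDR summit, the position of highest signal of a peak, lay within 500 bp of one of its transcription start sites (TSSs). Read depth is unknown from the peak lists, and intervals cover counting error over genes only.

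The V-ATPase is a rotary proton pump that acidifies lysosomes, endosomes and secretory vesicles, and in insects it also energises epithelia such as the Malpighian tubule from the plasma membrane. Its V1 sector in the cytosol hydrolyses ATP with the A and B subunits, turns a central stalk of D and F, and is held by peripheral stalks of E and G with the C and H subunits. The membrane sector V0 moves protons through the a subunit and a ring of c and c″ subunits, with d coupling the ring to the stalk and e as a small membrane subunit. Fly genomes encode several of these subunits in more than 1 copy, and many of the extra copies are known for expression in few tissues, often in testis. The symbols give the subunit by a stem, so that Vha68-1, Vha68-2 and Vha68-3 are the paralogs of subunit A.

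The promoters of the subunit A paralogs are shown because peaks lay at 2 of these copies and not at the other, and those of Vha26, Vha100-1 and VhaSFD because they carry known promoter words close to the start. Each line runs from 250 bases before the TSS to 50 bases from the TSS on, 5′ to 3′ on the strand of the gene, in sequence of the Release 6 assembly (dm6). Capitals mark the DNA replication-related element (DRE, TATCGATA, the word of the factor DREF) or, where only that is present, its core ATCGAT, and Motif 1 (GGTCACACT, the word of M1BP), each searched on both strands.
Vha68-1 promoter, chr2L:13004058-13004357, minus strand: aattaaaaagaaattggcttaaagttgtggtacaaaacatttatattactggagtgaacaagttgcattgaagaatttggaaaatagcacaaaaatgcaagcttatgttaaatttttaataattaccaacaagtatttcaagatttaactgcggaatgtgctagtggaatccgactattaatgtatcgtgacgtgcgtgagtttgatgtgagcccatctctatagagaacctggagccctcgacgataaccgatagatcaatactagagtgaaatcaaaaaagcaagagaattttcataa
Vha68-2 promoter, chr2L:12974072-12974371, plus strand: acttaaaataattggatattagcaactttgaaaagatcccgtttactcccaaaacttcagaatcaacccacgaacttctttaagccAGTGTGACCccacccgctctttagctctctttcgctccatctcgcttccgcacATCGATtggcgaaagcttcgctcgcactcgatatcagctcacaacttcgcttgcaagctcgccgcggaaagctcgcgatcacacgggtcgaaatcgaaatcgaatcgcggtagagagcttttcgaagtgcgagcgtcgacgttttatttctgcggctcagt
Vha68-3 promoter, chr2L:12978536-12978835, plus strand: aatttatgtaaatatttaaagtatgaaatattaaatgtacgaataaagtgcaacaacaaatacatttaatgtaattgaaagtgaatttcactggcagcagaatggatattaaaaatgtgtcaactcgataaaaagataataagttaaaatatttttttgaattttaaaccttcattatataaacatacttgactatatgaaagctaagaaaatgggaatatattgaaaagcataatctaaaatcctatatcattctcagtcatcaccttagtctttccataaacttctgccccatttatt
Vha26 promoter, chr3R:5591513-5591812, plus strand: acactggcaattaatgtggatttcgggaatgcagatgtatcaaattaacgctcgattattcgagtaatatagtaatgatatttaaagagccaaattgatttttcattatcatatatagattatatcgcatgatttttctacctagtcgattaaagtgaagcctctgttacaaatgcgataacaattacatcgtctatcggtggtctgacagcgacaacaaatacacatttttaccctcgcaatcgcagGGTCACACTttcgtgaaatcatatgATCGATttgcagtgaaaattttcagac
Vha100-1 promoter, chr3R:29130943-29131242, plus strand: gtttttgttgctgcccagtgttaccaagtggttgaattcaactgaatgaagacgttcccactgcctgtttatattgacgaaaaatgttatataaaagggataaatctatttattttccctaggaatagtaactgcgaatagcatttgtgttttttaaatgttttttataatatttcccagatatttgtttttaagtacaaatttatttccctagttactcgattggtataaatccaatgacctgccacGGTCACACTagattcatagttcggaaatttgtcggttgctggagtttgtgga
VhaSFD promoter, chr2L:16727777-16728076, minus strand: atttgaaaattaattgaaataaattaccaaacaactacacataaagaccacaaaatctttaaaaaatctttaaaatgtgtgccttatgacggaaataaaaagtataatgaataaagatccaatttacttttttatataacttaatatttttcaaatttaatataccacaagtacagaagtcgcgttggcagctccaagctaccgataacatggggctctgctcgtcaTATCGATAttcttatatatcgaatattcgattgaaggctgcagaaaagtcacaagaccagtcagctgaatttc
Vha26 and Vha100-1 hold Motif 1 from position -2 relative to the TSS, VhaSFD holds the DRE from position -23, and Vha68-2 holds ATCGAT from -111 and, read on the opposite strand, Motif 1 from -164. Vha26 also holds ATCGAT from position 24, inside the transcript. Words close to the start were not confined to bound genes. In windows that are not printed, ATCGAT began at -31 in VhaAC45RP and -45 in VhaPPA1-2, both unbound, and at -10 in VhaM9.7-a, which was bound. The windows of Vha68-1 and Vha68-3 hold none of these words. Beyond its window Vha68-1 had a second, weaker IDR summit, with the middle of an ATCGAT 25 bp from it. Vha68-2 has 5 TSSs and Vha100-1 has 2, and the window of only 1 TSS is printed for each.

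The 61 bases centred on the IDR summits of ATP6AP2, Vha68-2 and VhaM9.7-a are shown because ATCGAT, in capitals, began at most 12 bp before the summit base.
ATP6AP2 summit, chr3R:9260544-9260604, plus strand: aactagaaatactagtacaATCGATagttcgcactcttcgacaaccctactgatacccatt
Vha68-2 summit, chr2L:12974193-12974253, plus strand: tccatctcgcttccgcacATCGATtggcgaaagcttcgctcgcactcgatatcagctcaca
VhaM9.7-a summit, chr3L:4262495-4262555, plus strand: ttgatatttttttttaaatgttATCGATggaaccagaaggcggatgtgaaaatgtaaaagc
The word began 11, 12 and 8 bases before the summit base in these lines, and the signals of the 3 peaks were 381.9, 409.3 and 190.6. Vha36-1, whose window is not printed, held the word close by on the other side, with its middle 13 bp past the summit base. By the same measure the words of ATP6AP2, Vha68-2 and VhaM9.7-a lay 8, 9 and 5 bp before it.

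Of the 34 genes 18 were bound, or 52.9% (95% Clopper-Pearson interval 35.1 to 70.2), beside 33.3% of all protein-coding genes. In the longer pooled list 25 genes (73.5%, 55.6 to 87.1) had a summit within 500 bp of a TSS, beside 62.9% of all protein-coding genes. The other 9 genes had none. The strongest promoter peaks of the 18 bound genes had signals (the deposited strength of a peak, on a scale that is not stated) from 144.4 to 1056 with a median of 338.0, beside a median of 289.5 over the 4641 bound protein-coding genes. Their ranks in the IDR list ran from 350 down to 6340, so the V-ATPase peaks were spread over the list, with Vha100-2 the strongest of them and Vha14-1 the weakest. The IDR list ends at a signal of 142.0. Just inside lay Vha14-1 with 144.4, and just outside VhaAC39-1 with 139.6.

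By sector, 9 of 13 V1 genes (69.2%, interval 38.6 to 90.9) and 7 of 18 V0 genes (38.9%, 17.3 to 64.3) were bound. So were 2 of 3 accessory genes, beside 33.3% of all protein-coding genes. The pooled list added no V1 gene (9 of 13, 69.2%), whereas it held 13 of 18 V0 genes (72.2%) and all 3 accessory genes. Over all protein-coding genes 62.9% had a pooled summit. Of the 16 stems 13 had at least 1 bound gene, and each of the 16 had a gene with a pooled summit. The difference between sectors was not tested.

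**Figure D1:**
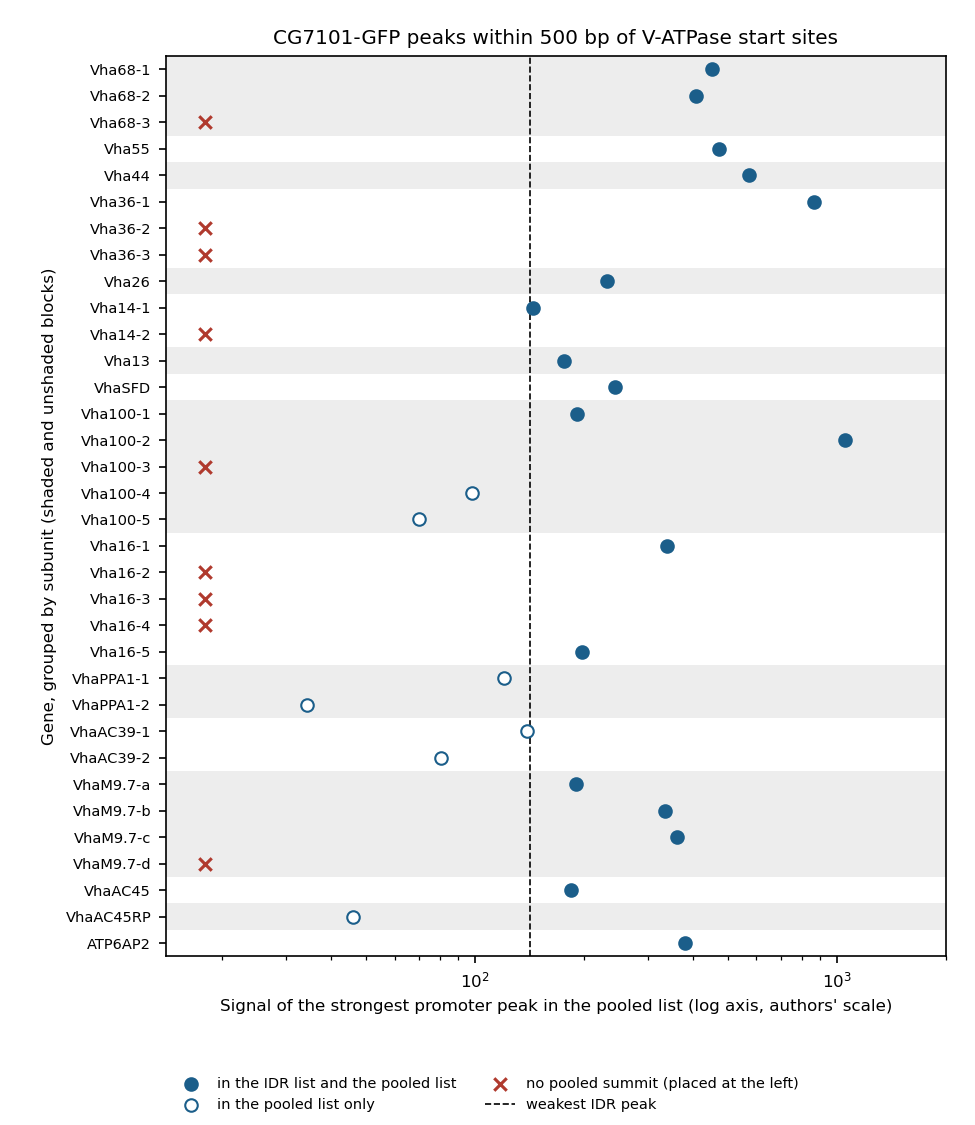
Signal of the strongest peak within 500 bp of a TSS of each of the 34 genes in the pooled list, on a log axis and in the units of the authors' peak caller, with genes grouped by subunit. Filled points (18 genes) are also in the IDR list and lie right of the dashed line at its weakest peak, open points (7 genes) are in the pooled list only, and crosses (9 genes, placed at the left with no value) have no pooled summit. Values are single pooled values with no error.

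The catalytic A subunit had 2 bound copies of similar strength. Vha68-1 had a pooled signal of 452.7, with 230.4 in replicate 1 and 227.4 in replicate 2 (chr2L:13004107-13004412, summit 142 bp upstream of the TSS). A second IDR summit of Vha68-1, with a signal of 142.7, lay 343 bp upstream and 30 bp from the TSS of mTor. The middle of an ATCGAT lay 25 bp from that summit. Each replicate list held only 1 promoter summit for Vha68-1. Vha68-2 had 409.3, with 232.1 and 183.9 in the replicates (chr2L:12974063-12974354, 99 bp upstream). Vha68-3 had no summit within 500 bp in any list. It lies 178 bases past the end of Vha68-2 on the same strand, the nearest pooled summit was 539 bp away and the nearest IDR summit 4563 bp away. So of the tandem neighbours Vha68-2 and Vha68-3 only the first had a promoter peak.

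Vha55, the single gene of the nucleotide-binding B subunit, had a pooled signal of 471.7 (219.4 in replicate 1 and 263.5 in replicate 2, chr3R:12627699-12628021) with the summit 44 bp upstream. Vha44 for subunit C had 571.0 (334.2 and 244.8, chr2R:16336542-16336876), 101 bp upstream, where the TSS of Hmgs, the gene of hydroxymethylglutaryl-CoA synthase, lay nearer at 22 bp. Vha26 for the stalk subunit E had 232.6 (132.7 and 95.1), 149 bp upstream and also upstream of the Motif 1 word shown above. All 3 genes were bound and each had a promoter peak in both replicates.

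The D subunit showed the widest contrast in V1. Vha36-1 had a pooled signal of 864.1, with 405.9 in replicate 1 and 465.0 in replicate 2, the second strongest of all V-ATPase promoters. Its summit lay 54 bp upstream of its TSS and 18 bp from the TSS of CG8187 on the opposite strand (chr2R:15541234-15541532). Vha36-2 had no promoter summit in any of the 4 lists, with the nearest pooled summit 2102 bp away. Vha36-3 had none in the IDR list, the pooled list or replicate 1, and a peak of rank 27455 among 30000 in replicate 2 (signal 16.4). The peak counted for Vha36-1 thus stood above those of both other copies in all 4 lists, although the CG8187 TSS was nearer to it. With each summit counted only for its nearest TSS, no copy of the D subunit was bound.

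The remaining bound V1 genes had their IDR summits just past the start, a side that the replicate lists did not share throughout. VhaSFD for subunit H had 244.2 (157.4 in replicate 1 and 104.8 in replicate 2), with the summit 23 bp downstream of the TSS. Vha13 for the stalk subunit G had 175.9 (149.9 and 41.2), 11 bp downstream. Vha14-1 for subunit F had 144.4 (91.2 and 59.8), 14 bp downstream. These were the only 3 bound V-ATPase genes whose strongest IDR summit lay downstream of the TSS, each in the 5′ UTR. In replicates 1 and 2 the strongest summit lay at 68 and -40 bp for VhaSFD (negative is upstream). It lay at -15 and -40 bp for Vha13, and at 122 and -22 bp for Vha14-1. The paralog Vha14-2 had no promoter summit in any list, and its nearest IDR summit was 114096 bp away.

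In V0, the a subunit gene Vha100-2 had the strongest V-ATPase promoter peak, with a pooled signal of 1056 and ranks of 346 in replicate 1 (signal 593.1) and 363 in replicate 2 (470.5). It spanned chr3R:18397009-18397551, with the summit 304 bp upstream of a Vha100-2 TSS, inside the longer Vha100-2 transcript and in the 5′ UTR of Vti1b, a vesicle fusion SNARE whose TSS was nearer at 237 bp. A further IDR summit with a signal of 159.1 lay 497 bp upstream of the other Vha100-2 TSS and 43 bp from a Vti1b TSS. The peak counted for Vha100-2 thus stood far above those of the other copies in both replicates, although a Vti1b TSS was nearer to it. With each summit counted only for its nearest TSS, no copy of the a subunit was bound. Vha100-1, known for its work at synaptic vesicles, had 191.4 (102.2 and 90.8), 167 bp upstream and 54 bp from the TSS of dgt6. Vha100-4 (98.5 pooled, 71.3 and 23.2) and Vha100-5 (70.1 pooled, 23.3 and 41.0) were in the pooled list only. Vha100-3 had no promoter summit in any list, and the nearest pooled summit was 19520 bp away. Across the 5 copies the strongest pooled signal was 5.51 times the next.

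Of the 5 copies of the proton-carrying c subunit, Vha16-1 had a pooled signal of 340.5 (155.5 in replicate 1 and 185.1 in replicate 2, chr2R:6633105-6633382), 166 bp upstream. Vha16-5 had 197.5 (107.9 and 96.1), 283 bp upstream of its TSS and 19 bp from the TSS of CG12299. Vha16-2, Vha16-3 and Vha16-4 had no promoter summit in any list, at 12837, 14409 and 582 bp from the nearest pooled summit. Vha16-3 and Vha16-2 lie 985 bp apart on the same strand.

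No copy of the c″ or d subunit was bound, and all 4 genes had a weaker summit in the pooled list. VhaPPA1-1 for c″ had a pooled signal of 120.2 (63.5 in replicate 1 and 71.4 in replicate 2), 33 bp downstream of the TSS. Its tandem copy VhaPPA1-2 had 34.4 pooled, a peak with a q value of 0.137, and none in either replicate. VhaAC39-1 for d had 139.6 (88.9 and 58.4), 39 bp downstream. VhaAC39-2 had 80.6 pooled, with 33.4 in replicate 1 and 77.0 in replicate 2, and these replicate summits were 295 bp apart. For the small e subunit 3 of 4 copies were bound. VhaM9.7-c had 362.5 (177.2 and 187.0), 21 bp upstream, VhaM9.7-b 335.5 (213.8 and 124.3), and VhaM9.7-a 190.6 (114.1 and 87.4). The stronger VhaM9.7-b summit lay 325 bp upstream and 90 bp from the TSS of COX8, a cytochrome c oxidase gene, and a second IDR summit with a signal of 156.7 lay 5 bp from the TSS of VhaM9.7-b. VhaM9.7-d had no promoter summit in any list.

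Among the accessory genes, ATP6AP2, also known as the prorenin receptor, had 381.9 (191.4 in replicate 1 and 196.4 in replicate 2), 64 bp upstream and with no other TSS within 1000 bp. VhaAC45, which encodes the accessory protein of the membrane sector, had 184.6 (112.6 and 68.7), 99 bp upstream. Its relative VhaAC45RP had 46.1 in the pooled list (q value 0.0338), 34.6 in replicate 1 and no promoter summit in replicate 2.

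Counted by subunit, 8 stems had paralogs. In 6 of them (A, D, F, a, c and e) at least 1 copy was bound and at least 1 was not, in 2 (c″ and d) no copy was bound, and in 0 were all copies bound. Of the 8 genes whose stem has no other copy 7 were bound (87.5%, interval 47.3 to 99.7), all but VhaAC45RP. By its symbol VhaAC45RP counts as a stem apart from its relative VhaAC45. Of 26 genes with paralogs 11 were bound (42.3%, 23.4 to 63.1), beside 33.3% of all protein-coding genes. The difference between genes with and without paralogs was not tested. Lying side by side did not always go with a shared state. As with Vha68-2 and Vha68-3, Vha100-2 was bound while Vha100-4, 517 bases past its end, was in the pooled list only. By contrast the adjacent Vha16-3 and Vha16-2 both lacked a promoter summit.

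The replicates ordered the genes alike. Among 23 genes with a promoter peak in both replicates, ranks correlated with a Spearman rho of 0.88, given as a description since all genes share the same 2 libraries. All 18 bound genes had a promoter peak in both replicates, 16 of them within the 6486 strongest of each. The IDR peaks were derived in part from the replicate lists, so a peak in both was largely set by the choice of bound genes. The better rank was in replicate 1 for 10 and in replicate 2 for 8, and the ratio of the ranks had a median of 1.36. The largest ratio among the bound genes was 3.90, for Vha13, at rank 2884 in replicate 1 and 11237 in replicate 2. Among the other 5 genes with a peak in both replicates, the ratio ran from 1.36 (VhaAC39-1) to 2.83 (VhaAC39-2). The strongest promoter summits of the 2 replicates lay a median of 27.5 bp apart over the bound genes, and at most 144 bp (Vha14-1).

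**Figure D2:**
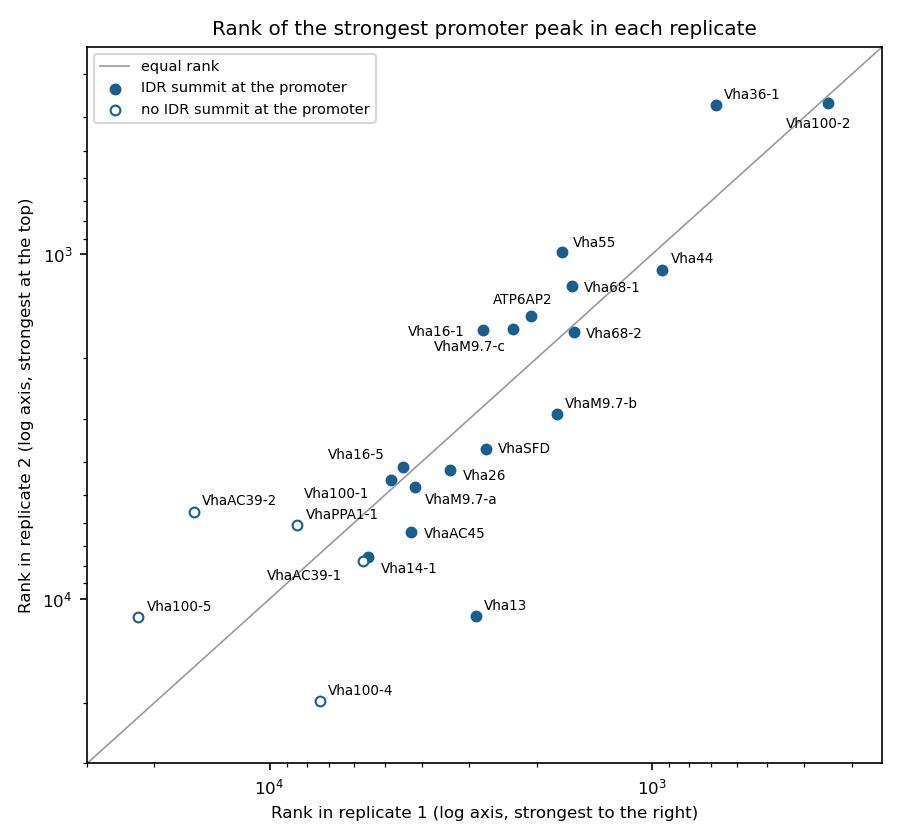
Rank of the strongest promoter peak in replicate 1 (x axis) and replicate 2 (y axis), each among 30000 peaks, on log axes that run from weak to strong, for the 23 genes with a promoter peak in both. Filled points are the 18 bound genes, open points the other 5, and the line marks equal ranks. Vha100-2 lies at 346 and 363, while Vha13 lies farthest from the line among the bound genes.

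Most V-ATPase summits lay upstream of the start. Of the 18 strongest IDR promoter summits 15 were upstream of the nearest TSS of the gene, at a median of -100 bp, and 9 lay within 100 bp. By annotation 12 were intergenic, 5 in a 5′ UTR and 1, at VhaM9.7-c, in introns of CG18675 and Teh2. For 11 genes the start site nearest to that summit was their own. For the other 7 (Vha36-1, Vha44, Vha100-1, Vha100-2, Vha16-5, VhaM9.7-a and VhaM9.7-b) the nearest TSS belonged to another gene, and of 18 summits 12 lay within 500 bp of a second protein-coding gene. Such peaks cannot be assigned to 1 gene of the pair. These positions were not set beside those of all bound genes, so nothing particular to V-ATPase genes is read from them.

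**Figure D3:**
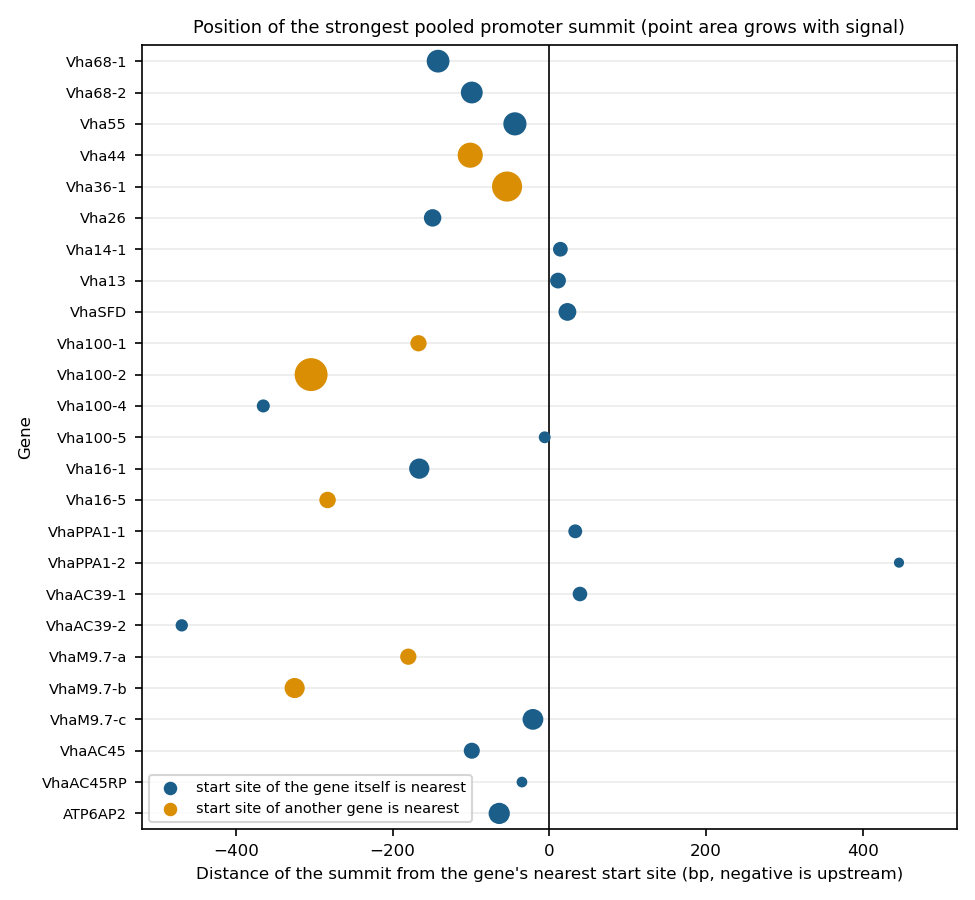
Distance in bp from the gene's nearest TSS to the strongest pooled promoter summit of 25 genes (negative values are upstream), with point area growing with signal. Blue points have the gene's own TSS nearest, and orange points, 7 genes including the strongest 3 (Vha100-2, Vha36-1 and Vha44), have the TSS of another gene nearest.

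Bound V-ATPase genes were more frequent where another gene starts nearby, a difference that was not tested. Of 16 V-ATPase genes with a TSS of another gene within 1000 bp 13 were bound (81.2%, interval 54.4 to 96.0), beside 48.8% of 6726 such protein-coding genes. Of 18 without one 5 were bound (27.8%, 9.69 to 53.5), beside 18.8% of 7219. These 5 were Vha16-1, Vha68-2, VhaSFD, VhaM9.7-c and ATP6AP2. None of the 7 genes found in the pooled list only had such a neighbour, and 3 of the 9 genes without a pooled summit did. Among the 6726 protein-coding genes with a neighbour, 3285 were bound and 5186 had a pooled summit, so pooled-only genes with a neighbour did occur. Each of the 13 bound genes had a protein-coding neighbour on the opposite strand within that distance. The share with an opposite-strand neighbour was not counted over all bound genes, so nothing particular to V-ATPase genes is read from it. The nearest such neighbour lay 67 to 640 bp away. These neighbours were Vti1b (Vha100-2), CG8187 (Vha36-1), Hmgs (Vha44), Snx3 (Vha55), dgt6 (Vha100-1), CG11586 (VhaM9.7-a), CG12299 (Vha16-5), noi (Vha26), mTor (Vha68-1), COX8 (VhaM9.7-b), Gnptab (VhaAC45), CG30091 (Vha14-1) and Nup58 (Vha13). Their known roles are mixed, from a spindle protein (dgt6), a splicing factor (noi) and a nuclear pore protein (Nup58) to the growth kinase mTor and the endosomal sorting nexin Snx3. Vha16-5 and Vha36-1 each had a further neighbour, Nup107 and asRNA:CR45927. The 3 unbound genes with a neighbour were Vha16-2 (asRNA:CR46049), Vha16-4 (CG34190) and Vha36-3 (AANATL7). Whether the neighbour or the V-ATPase gene is the one that matters for a shared peak was not tested.

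**Figure D4:**
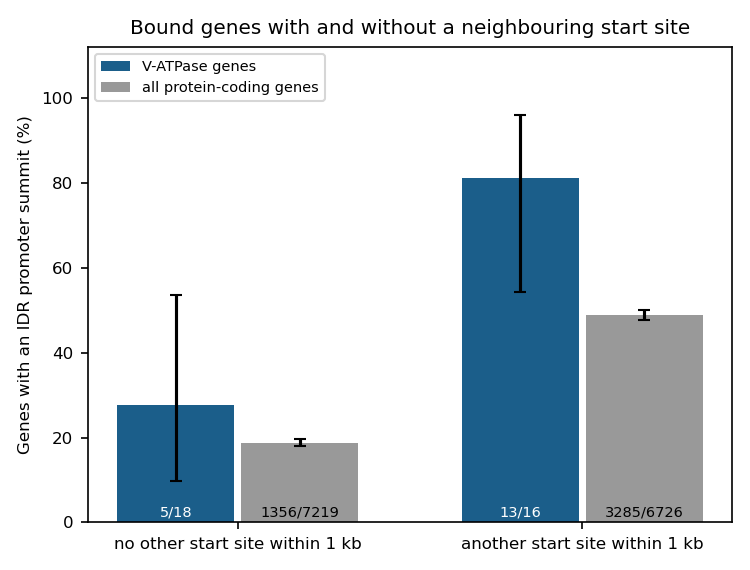
Percent of genes with an IDR promoter summit, split by whether the TSS of another gene lies within 1 kb, for V-ATPase genes (blue) and all protein-coding genes (grey). Bars start at 0, error bars are 95% Clopper-Pearson intervals and the counts stand at the foot: 5 of 18 and 13 of 16 V-ATPase genes, 1356 of 7219 and 3285 of 6726 genes in all.

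Some genes carried IDR summits away from their start as well. Vha16-1 held 3 intronic IDR summits with signals of 208.8, 204.9 and 145.0, between 1712 and 4112 bp from its nearest TSS, and 10 pooled summits in all. Vha100-2 held an intronic summit of 369.4 at 3271 bp and another of 144.2 at 770 bp. In Vha13 the stronger summit of the gene, with a signal of 219.3, lay in the 3′ UTR, 1236 bp from the TSS, against 175.9 at the promoter. Vha26 had an intronic summit of 164.8 at 648 bp. No other V-ATPase gene held an IDR summit in the gene more than 500 bp from its TSSs.

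Known promoter words were searched in the 300-base window of every TSS of a gene, so that genes with more TSSs offered more sequence. ATCGAT was present at 9 of 18 bound V-ATPase genes (50%), beside 37.3% of all bound protein-coding genes. It was present at 2 of 16 others (12.5%), VhaAC45RP and VhaPPA1-2, and at 26.3% of all protein-coding genes. The full DRE, which contains ATCGAT, was present at 2 genes, Vha55 and VhaSFD (11.1% of the bound, beside 17.2% of all bound genes and 10.2% of all). Motif 1 was present at 4, Vha100-1, Vha16-1, Vha26 and Vha68-2 (22.2% of the bound, beside 11.5% of all bound genes and 6.78% of all). The E-box CACGTG was present at 5 of the 34 genes (14.7%, beside 5.30% of all genes), namely Vha44, Vha55, Vha68-2, VhaAC45RP and VhaM9.7-d. Its longer form TCACGTGA, the kind of word bound by Mitf, the fly relative of the lysosomal regulator TFEB, was present at Vha44 and Vha68-2 (5.88%, beside 0.201% of all genes). At Vha68-2 both forms lay outside the window printed above, in that of another TSS. TATAAA, the word of the TATA box, was counted anywhere in the window. It was present at 10 of 18 bound genes and 8 of 16 others (52.9% of the 34, beside 51.2% of all genes). With so few genes these shares are descriptions.

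Measured from the summits, ATCGAT lay within 100 bp of 7 of the 21 IDR summits at V-ATPase promoters (33.3%), beside 20% of the 3918 IDR summits within 500 bp of any protein-coding TSS. The other words were each within 100 bp of 1 summit (4.76%), apart from TATAAA at 4 (19.0%, beside 33.7%). The shares beside that 4.76% were 8.98% for the DRE, 4.8% for Motif 1, 2.6% for CACGTG and 0.128% for TCACGTGA. The TCACGTGA of Vha44 was centred 56 bp from its summit, whereas that of Vha68-2 was not within 100 bp of one.

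Start sites without an IDR summit held no sequence that recurs in the genome by this measure. Of the 30-base words within 500 bp of their TSSs, 0% occurred again on the arms for each of the 16 unbound genes, and at most 2.16% did among the bound ones (Vha36-1). Base composition of the 300-base promoter overlapped between the groups, with a median GC content of 35.9% for bound genes (30.7 to 51.0), 37.7% for genes in the pooled list only (31.7 to 49.7) and 35.3% for genes with no pooled summit (24.7 to 49.0). Bound genes had up to 12 introns with a median of 3, and genes with no pooled summit up to 3 with a median of 1. Intronless genes were found on both sides, with 4 of 18 bound (Vha14-1, Vha16-5, Vha36-1 and VhaM9.7-c) and 4 of 9 without a pooled summit (Vha100-3, Vha16-2, Vha16-4 and VhaM9.7-d).

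Of 4 genes for V-ATPase regulation and assembly 2 were bound (50%, beside 33.3% of all protein-coding genes), a list too short to read against that share. They were mtd (signal 410.9, a TLDc-domain protein) and Rbcn-3A (394.5, of the complex that assembles the pump). By contrast Mitf (120.0) and Rbcn-3B (80.3) were in the pooled list only. Of 22 genes listed for lysosomal enzymes and membrane proteins 20 were matched, of which 14 were bound (70.0%, beside 33.3% of all protein-coding genes) and 18 had a pooled summit (90.0%, beside 62.9%). The strongest were Hexo2 (709.2, a hexosaminidase), Ppt1 (419.6, a palmitoyl-protein thioesterase), CtsB (417.2, cathepsin B) and Cln7 (283.0). These lists are short and were not tested.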

How the data were processed

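The authors called peaks against a control for each of 2 replicates and for both together, and derived the IDR peaks from these 3 lists, per the deposited descriptions. The control was not analysed here. Aligner, peak caller and IDR threshold: not given in the sources used here. The signal that the authors deposited for a peak has no stated scale, so it was compared only within a list, and replicates were compared by rank. The −log10 q value that the authors deposited was 4.32 for every IDR peak and ranked nothing. Peaks and sequence are in dm6, counted from 1.

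TSSs came from all transcripts of Ensembl release 115 on 6 chromosome arms, leaving transposable elements aside. The strongest summit within 500 bp of a TSS was taken in each list. Every V-ATPase gene is named, as are neighbours within 1000 bp of its TSSs, genes whose introns or starts hold a summit, the 4 genes of the assembly list and the 4 strongest lysosomal genes. The genes and lists were chosen with earlier results of these data known. No test was made, since 1 group has no contrast and genes are not replicates. The assignment of summits to genes was tested on simulated data. Scripts ran in Python 3.11.15 with pandas 2.3.3, numpy 2.4.6, matplotlib 3.10.9 and scipy 1.17.1. The 9 alternatives changed the window, the start sites, the replicates, the list and the treatment of shared promoters.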

Additional observations from a re-analysis of the deposited data

How the results depend on the processing

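The count of bound genes stayed within 1.5 times of 18 under 7 of 9 alternatives. It was 16 with a 250 bp window (47.1%, beside 28.6% of all protein-coding genes), which removed Vha100-2, the gene with the strongest peak, and Vha16-5. It was 18 with 1000 bp (beside 36.8%), 18 with protein-coding transcripts only, and 25 with the whole pooled list. It was 12 (35.3%, beside 24.9%) when each summit counted only for its nearest TSS. This removed Vha100-1, Vha100-2, Vha16-5, Vha36-1, Vha44 and VhaM9.7-a, so no copy of the a or D subunit stayed bound. With 1 replicate alone and as many peaks the count of bound genes was 18 to 19. Without replicate 1 the state of Vha13 and Vha14-1 was lost and that of VhaAC39-2 and VhaPPA1-1 gained, and without replicate 2 VhaAC39-1 was gained. With only the 3243 strongest IDR peaks 10 genes were bound (29.4%, beside 19.8%). Among the 18 genes with no neighbouring TSS within 1000 bp, 5 were bound, 12 had a pooled summit (66.7%, beside 49.6%), and 3 of the 6 subunits left with paralogs had a bound and an unbound copy, since fewer genes remain. With all genes, the number of such subunits was 4 to 7 of 8 under the other alternatives, 7 without either replicate. The number of genes with a pooled summit was 20 to 27 with all genes. The 20 came with a 250 bp window (58.8%, close to the 55.5% of all protein-coding genes). The 27 came with 1000 bp (79.4%, beside 67.7%). No paired analysis was possible because there is 1 group. Depth is unknown, so a gene without a summit may carry a signal too weak for a list of 30000 peaks.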
